A study of Mus musculus with 14 samples.

Results

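The genes of glycolysis and of the response to low oxygen were followed across cultured skeletal clones with and without p53. The 40 genes were taken by symbol from the annotated expression table, by a rule that reads no measured value, though the set was proposed with earlier results of these data known, and counted under their Ensembl identifiers. They were 4 glucose and lactate transporters, 9 enzymes from hexokinase to triose phosphate, 7 from triose phosphate to pyruvate, 2 lactate dehydrogenase subunits, 4 PFKFB enzymes, 4 pyruvate dehydrogenase kinases, 4 genes of oxygen sensing and 6 other genes that respond to hypoxia-inducible factor (HIF). All 40 passed the filter on low counts, out of 30503 genes counted and 17358 tested. Each of the 14 samples was a bulk RNA-seq library from a clone that had grown from a single tdTomato+ cell of mouse femur marrow. All mice carried Fgfr3-creER and an R26R-tdTomato reporter allele, and all were given tamoxifen at day 21. In such mice, tamoxifen lets the Cre of cells that transcribe Fgfr3 at that time act, so the clones represent only cells that were recombined then. The 5 Fgfr3-WT clones were isolated at day 23 (P23) and studied at passage 8. The 5 Fgfr3-p53 cKO clones isolated at day 28 (P28, passage 8) and the 4 isolated at 4 months (P4M, passage 6 to 8) also carried floxed Trp53 alleles. The WT libraries came from 1 submission and all cKO libraries from another, so that genotype and submission cannot be told apart in any comparison with WT, and the WT clones also differed in age at isolation. The paper reports that WT clones needed significantly longer in culture than the younger cKO clones to reach the same passage. Equal passage is thus not equal time in culture, which cannot be told apart from genotype in P28 against WT. The part of time in culture in the differences from WT was not tested. P4M and P28 clones shared genotype and submission. The labels do not say whether clones of a group came from separate mice, so p values measure the spread between clones.

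Glycolysis converts glucose to pyruvate in the cytosol. Pyruvate is then reduced to lactate by lactate dehydrogenase or enters mitochondria through the pyruvate dehydrogenase complex, which the pyruvate dehydrogenase kinases (PDKs) switch off. HIF is a heterodimer whose alpha subunit is hydroxylated by oxygen-dependent prolyl hydroxylases and then degraded through VHL, and when oxygen is low it accumulates and activates genes of glucose uptake, glycolysis and adaptation to hypoxia. Bone and cartilage cells of poorly perfused regions, such as the growth plate, are known for their reliance on this system. p53 is known to restrain glycolysis through several target genes.

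Libraries held 25688946 to 52857424 counts. Trp53 was at 49.9 to 68.2 counts scaled to depth (CPM) in WT clones and at 1.72 to 2.84 CPM in cKO clones. The summed level of 8 skeletal stromal markers was 118 to 1540 transcripts scaled to length and depth (TPM) in WT, 3910 to 7640 in P28 and 3030 to 9340 in P4M clones, and none of them was at 0 throughout a group. Gene by gene, none of the 8 was called in P28 against WT at an FDR of 0.05 with edgeR, beside 38.9% of all genes. In P4M against WT 1 was higher and 1 lower, beside 45.9% of all genes called. The summed level of 8 osteoblast markers was 1210 to 4420, 4510 to 7920 and 5110 to 17400 TPM in the same order, and that of 8 chondrocyte markers was 430 to 6260, 507 to 1090 and 19.9 to 141 TPM. Of the osteoblast markers, 3 were higher and 1 lower in P28 against WT (50% called), and 6 higher and 1 lower in P4M against WT (87.5%). Of the chondrocyte markers, 1 was higher and 4 lower in P28 against WT (62.5%), and 7 were lower and none higher in P4M against WT (87.5%). The 5 proliferation genes summed to 64.9 to 112 TPM in WT, 185 to 583 in P28 and 295 to 495 in P4M clones. The 7 reticular and adipocyte genes summed to 25.7 to 249, 317 to 442 and 90.1 to 298 TPM, and the 6 haematopoietic genes to 5.54 to 67.3, 2.55 to 4.16 and 2.32 to 9.62 TPM. Of the 6 reticular and adipocyte genes tested, 1 was called higher and none lower in P28 against WT. In P4M against WT 1 of them was higher and 1 lower. Only 2 of the haematopoietic genes were tested, with 1 higher and 1 lower in P28 against WT. In P4M against WT 1 of these 2 was lower and none higher. The 5 endothelial genes summed to at most 3.26 TPM in any clone and the 5 skeletal muscle genes to at most 19.3 TPM. Of these markers, Adipoq, Adgre1, Cdh5, Emcn and Ckm had no count in any WT clone, and Cdh5 had none in any cKO clone. In these bulk libraries, fewer cells of a type and less RNA per cell cannot be told apart, and the part of these marker differences in the values below was not tested.

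Among glycolytic and hypoxia response genes, far more were lower than higher in P28 cKO clones against WT clones, and more were higher than lower in P4M against P28 cKO clones. At an FDR of 0.05 with edgeR, 20 of the 40 genes were lower and 4 were higher in P28 than in WT clones. Of all 17358 genes tested in this contrast, 38.9% were called, 19.7% lower and 19.2% higher. The median log2 fold change was -0.71 over the 40 genes and -0.02 over all genes. In 15 of the 40 genes every P28 clone lay below every WT clone, and in 4 every P28 clone lay above, where 11.5% and 13% of all genes did so. Of the 40 genes, 14 were higher and 2 (Pfkm and Pfkfb2) were lower in P4M than in P28 clones, whereas 7.22% of all genes were called, 3.34% higher and 3.88% lower. The median over the 40 genes was 0.92, against -0.01 over all genes, and in 15 genes every P4M clone lay above every P28 clone and in 1 (Pfkm) below, as in 9.07% and 9.96% of all genes.

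Against WT, P4M clones showed no such lean to 1 side. There 10 of the 40 genes were higher and 8 lower, beside 22.3% and 23.6% of all genes (45.9% called in all), and the median of the 40 genes was 0.06. With both cKO groups together, 7 genes were higher and 17 lower than in WT, beside 23.1% and 25.7% of all genes (48.8% called), with a median of -0.60 against -0.05. Only Slc2a3, Eno3 and Pdk4 lay above the WT range in all 9 cKO clones and only Eno2, Pfkfb2 and Ddit4 below it, beside 9.73% and 8.38% of all genes. Among the 3 groups 34 of the 40 genes differed, beside 50.6% of all genes. The 2 comparisons with WT share the WT clones, and P28 against WT and P4M against P28 share the P28 clones with opposite sign, so that a chance deviation of the P28 clones moves both, in opposite directions. The values of such pairs are set side by side and not related to each other.

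**Figure D1:**
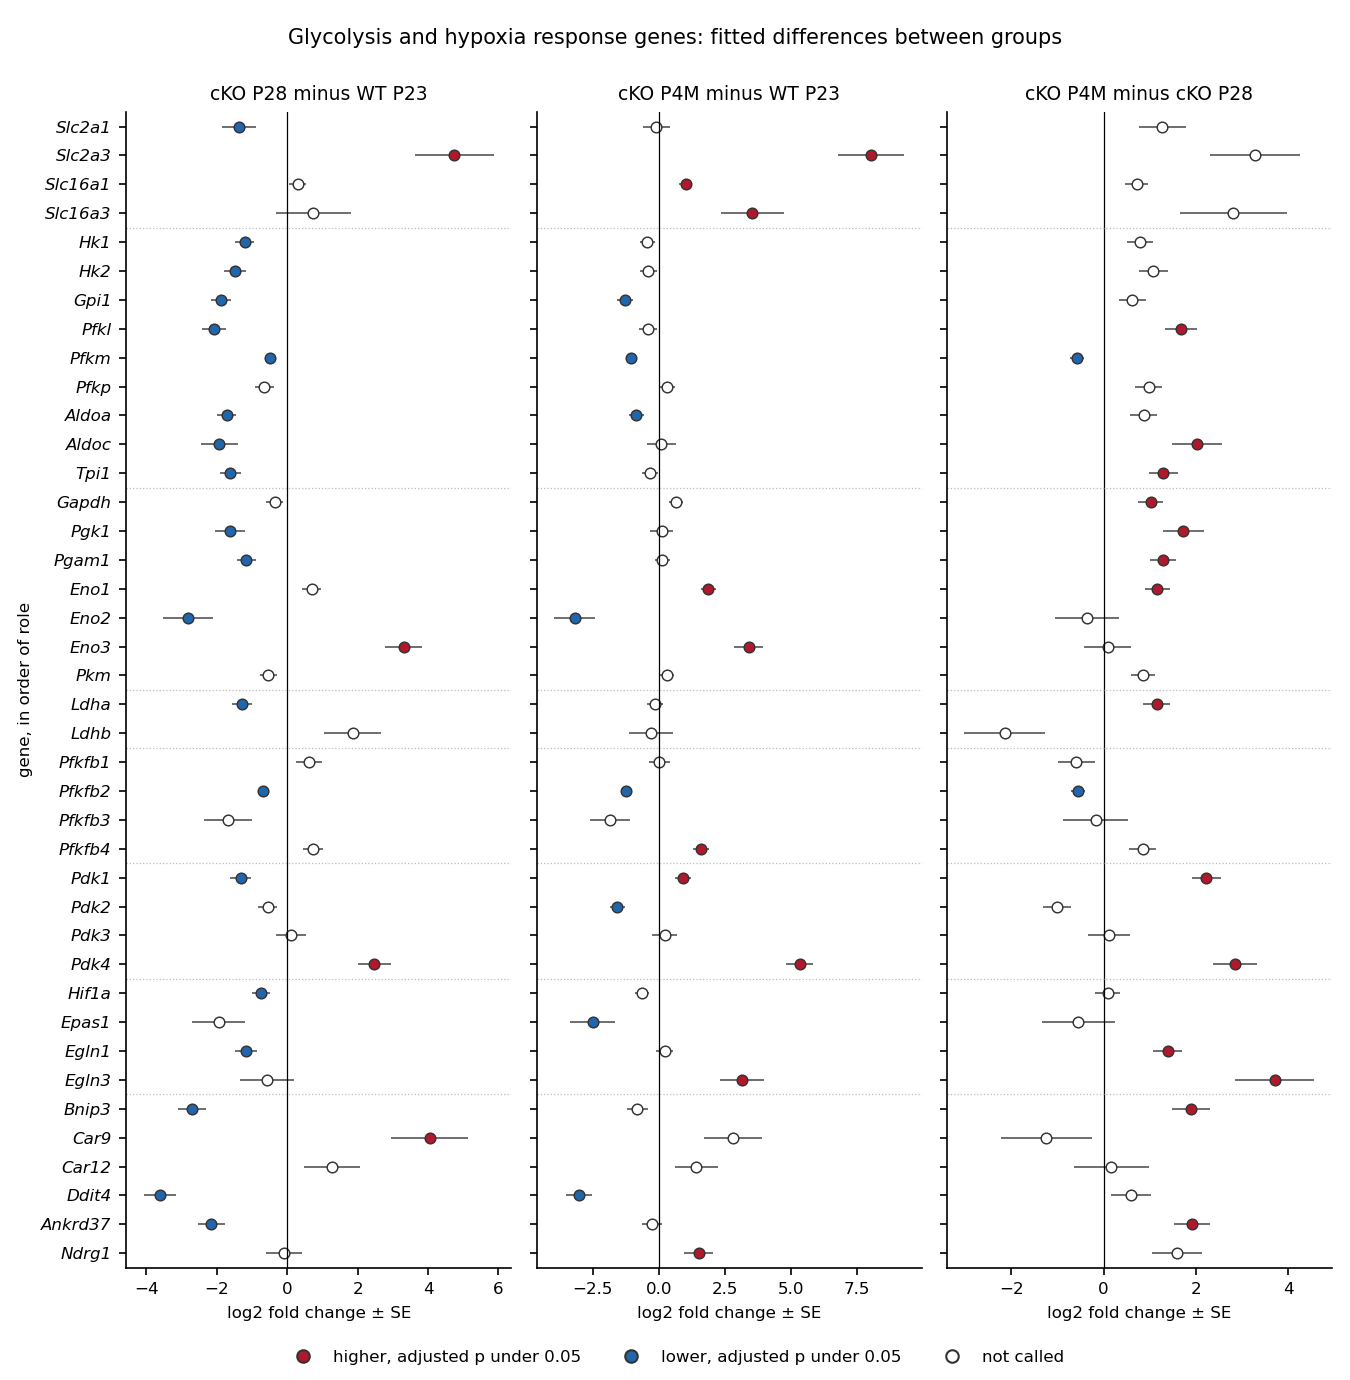
Fitted log2 fold change (points) with its standard error (bars) for each of the 40 genes, in order of role, for P28 minus WT, P4M minus WT and P4M minus P28; each panel has its own scale. Filled points passed an adjusted p of 0.05: 20 are lower and 4 higher in the left panel, 8 lower and 10 higher in the middle panel, and 2 lower and 14 higher in the right panel. Values of Slc2a3 and Car9 against WT depend on the prior count.

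Clones of a group were not alike in these genes. The SD of log2 CPM between clones had a median over the 40 genes of 0.61 in WT, 0.39 in P28 and 0.57 in P4M, where the median over all genes tested was 0.51, 0.33 and 0.31. P4M replicate 3 had the highest value of its group in 29 of the 40 genes, and P4M replicate 2 the lowest in 22. In the WT group, replicate 5 was highest in 16 genes and replicate 2 lowest in 18. Such ranks were not counted over all genes, so they cannot be read as particular to these 40. Without P4M replicate 3, 9 genes were called between P4M and P28, 7 higher and 2 lower, and 15 between P4M and WT, 6 higher and 9 lower. The share of all genes called without that clone was not counted.

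Slc2a1 (GLUT1) and Slc2a3 (GLUT3) encode glucose transporters. Slc2a1 was at 381, 46.9, 227, 178 and 103 CPM in WT replicates 1 to 5, at 80.8, 69.6, 61.1, 77.4 and 73.9 CPM in the P28 clones and at 135, 59.6, 312 and 193 CPM in the P4M clones. It was lower in P28 than in WT (log2 fold change -1.37, SE 0.489, adjusted p = 0.0402), but WT and P28 overlapped. When clones were left out in turn, the call was kept in 5 of 14 fits, and the adjusted p was 0.106 without WT replicate 1. P4M clones lay within the range of WT clones (-0.10, adjusted p = 0.888), and P4M against P28 did not pass (1.27, SE 0.509, adjusted p = 0.137).

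Slc2a3 was near the limit of detection in WT clones, with 7, 0, 3, 0 and 3 counts. It was at 0.925, 0.454, 2.11, 5.4 and 3.97 CPM in P28 clones and at 3.99, 5.14, 72.1 and 19.5 CPM in P4M clones, where 1 clone (replicate 3) held most of the signal. Every cKO clone lay above every WT clone, and Slc2a3 was called in P28 (adjusted p = 0.00502) and in P4M against WT (adjusted p = 0.000313). In P28 the call was lost with limma on log2(TPM + 1), where the adjusted p was 0.129. A fitted fold change over so few WT counts depends on the prior count and is not given. A count of 0 in a WT library allows up to 0.121 CPM, counting 3 reads as the limit and counting error alone.

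The monocarboxylate transporters move lactate and pyruvate across the plasma membrane. Slc16a1 (MCT1) was at 22.6, 31.1, 27.7, 30.4 and 49.6 CPM in WT and at 33, 61, 34.4, 27.2 and 43.1 CPM in P28 clones, which overlapped, and at 69.2, 61.1, 76.1 and 54.8 CPM in P4M clones, all above WT (1.02, SE 0.25, adjusted p = 0.00519). Slc16a3 (MCT4, a HIF-responsive exporter of lactate) had the widest spread of the 40 genes in P4M (SD of 2.48 on the log2 scale), at 81.2, 3.55, 150 and 103 CPM. In WT it was at 2.90, 0.995, 0.607, 30.2 and 1.07 CPM, so that 1 clone of each of these groups stood apart from the others. Its P4M level was called higher than in WT (3.55, SE 1.19, adjusted p = 0.0265), in 12 of the 14 fits without 1 clone, and with an adjusted p of up to 0.0616 without P4M replicate 3. In P28 clones Slc16a3 lay between 4.85 and 27.8 CPM and was not called in either direction.

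From hexokinase to triose phosphate, 8 of 9 genes were called lower in P28 against WT and none higher, beside 19.7% and 19.2% of all genes. Gpi1, glucose-6-phosphate isomerase, was at 672, 369, 505, 809 and 643 CPM in WT, at 150, 251, 180, 99.3 and 130 CPM in P28 and at 200, 178, 370 and 245 CPM in P4M clones. It was lower in both cKO groups than in WT (P28: -1.89, SE 0.289, adjusted p = 0.000352. P4M: -1.27, SE 0.305, adjusted p = 0.00455), and the P4M and WT ranges touched at 1 clone each. Aldoa, the main aldolase, followed the same course with 1200 to 2200 CPM in WT, 328 to 692 in P28 and 542 to 1350 in P4M clones (-1.72, adjusted p = 0.000506 in P28. -0.85, adjusted p = 0.03 in P4M, a call lost in 4 of the 14 fits without 1 clone, with an adjusted p of up to 0.0925 without P4M replicate 2).

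The hexokinases, which trap glucose as glucose 6-phosphate, were lower in P28 and intermediate in P4M clones. Hk1 was at 613, 199, 365, 490 and 310 CPM in WT, at 163, 160, 173, 184 and 173 CPM in P28 and at 228, 215, 444 and 291 CPM in P4M clones. Its P28 values lay within 1.15-fold of each other and below both other groups (-1.21 against WT, SE 0.273, adjusted p = 0.00372), while the difference of P4M from P28 missed the threshold (0.79, adjusted p = 0.102). Hk2, the hexokinase most often tied to HIF, had P28 clones below both other groups too, with 84.3 to 275 CPM in WT, 45.3 to 79.2 in P28 and 87.8 to 190 in P4M clones (-1.48, adjusted p = 0.00242 for P28 against WT. 1.08, adjusted p = 0.0557 for P4M against P28).

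The phosphofructokinase genes, for the committed step of glycolysis, moved apart. Pfkl (ENSMUSG00000020277, chr10:77986947-78010083, minus strand, mm10), the liver-type subunit, was at 516, 236, 370, 455 and 651 CPM in WT, fell to 79.6, 99.6, 75.1, 115 and 158 CPM in P28 and was at 254, 178, 537 and 383 CPM in P4M clones. The P28 clones lay below every clone of both other groups (-2.08, SE 0.338, adjusted p = 0.000518 against WT. P4M against P28: 1.68, SE 0.346, adjusted p = 0.0151). Pfkm, the muscle-type subunit, instead stepped down, from 87.5 to 134 CPM in WT through 73.5 to 95.2 in P28 to 48.8 to 68.5 CPM in P4M clones (P28 against WT: -0.48, adjusted p = 0.0165. P4M against P28: -0.57, adjusted p = 0.0378). Its WT and P28 ranges overlapped. The call in P4M against P28 was lost when any 1 of P28 replicates 1 to 4 or P4M replicates 1, 2 and 4 was left out. Pfkp, the platelet-type subunit, was at 49.4 to 98.1, 35.4 to 67.0 and 55.9 to 144 CPM and passed in none of the 4 contrasts, whereas its 3-group test did (adjusted p = 0.035).

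Aldoc and Tpi1 completed this part of the pathway. Tpi1, triose phosphate isomerase, was at 586 to 1450 CPM in WT, 234 to 448 in P28 and 455 to 1170 in P4M clones, with P28 below both other groups (-1.62, adjusted p = 0.00106 against WT, and 1.30, adjusted p = 0.0254 for P4M against P28). Aldoc, a minor aldolase, was at only 4.52 to 18.6 CPM in WT and 1.15 to 5 CPM in P28 clones, and was called lower in P28 than in WT (-1.93, adjusted p = 0.0113) and higher in P4M than in P28 (2.03, adjusted p = 0.0407), although the ranges overlapped each time.

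**Figure D2:**
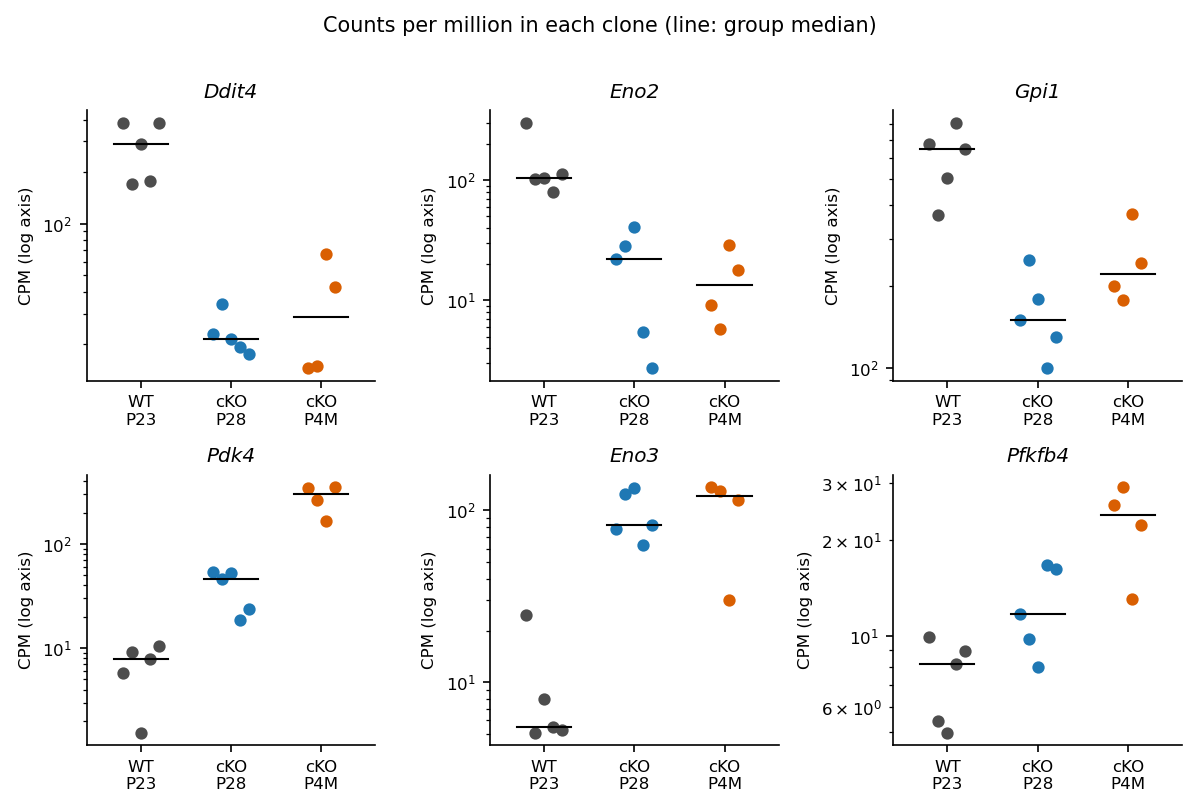
CPM (log axis) of 6 genes in each clone, with the group median as a line: Ddit4, Eno2 and Gpi1 in the upper row, Pdk4, Eno3 and Pfkfb4 in the lower row. All cKO clones are below all WT clones for Ddit4 and Eno2 and above them for Pdk4 and Eno3; for Gpi1 a single P4M clone (370 CPM) reaches the lowest WT clone (369 CPM).

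Several enzymes of the later steps of glycolysis have near-identical copies in the mouse genome, and the share of reads counted on the copies differed between the submissions. Copies of Eno1 (5 gene models that share at least 2% of its 50-base windows, among them Eno1b and the processed pseudogene Gm4735) held 54.1% to 55.9% of the counts of Eno1 and its copies together in WT clones, but 2.38% to 2.81% in P28 and 2.27% to 3.46% in P4M clones. Copies of Gapdh held 29.6% to 35.4% in WT, 14.2% to 16.2% in P28 and 12.4% to 18% in P4M clones. Within this, Gm13394 held 14.4% to 18.9% in WT clones and at most 0.484% in any cKO clone. The pseudogenes Gm5537, Pgam1-ps2, Gm6560 and Gm5514 were the main copies of Pgk1, Pgam1, Pkm and Ldhb. The copy shares of Pgk1 (8.29% to 11.8% in WT, 4.68% to 6.41% in cKO clones), Pgam1 (6.13% to 7.56% and 2.68% to 4.13%) and Pkm (5% to 6.64% and 3.38% to 5.59%) were higher in WT too, while those of Tpi1, Gpi1, Aldoa, Ldha and Bnip3 stayed at or below 3.21% in every clone. Ldhb had copy shares of 0% to 5.06%. With copies summed, the differences of Pgam1 and Pkm in P28 against WT were -1.23 (adjusted p = 0.00338) and -0.58 (adjusted p = 0.0793), and values with copies are given below for Eno1, Gapdh and Pgk1. The cause of the difference in shares was not tested.

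Enolase converts 2-phosphoglycerate to phosphoenolpyruvate. Eno1 alone was at 497, 368, 767, 826 and 664 CPM in WT, at 824, 1170, 759, 990 and 1320 CPM in P28 and at 1970, 1370, 3130 and 2650 CPM in P4M clones. Its rise against WT in both cKO groups together (1.28, SE 0.248, adjusted p = 0.000923) was not seen once the copies were summed with it (0.17, SE 0.236, adjusted p = 0.587). In P28 against WT the value turned from 0.70 (adjusted p = 0.052) to -0.42 (adjusted p = 0.227), and in P4M against WT it went from 1.87 (adjusted p = 0.000258) to 0.75 (SE 0.28, adjusted p = 0.0416). P4M against P28, where the copy shares were alike, gave 1.17 (adjusted p = 0.0273) both ways.

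**Figure D3:**
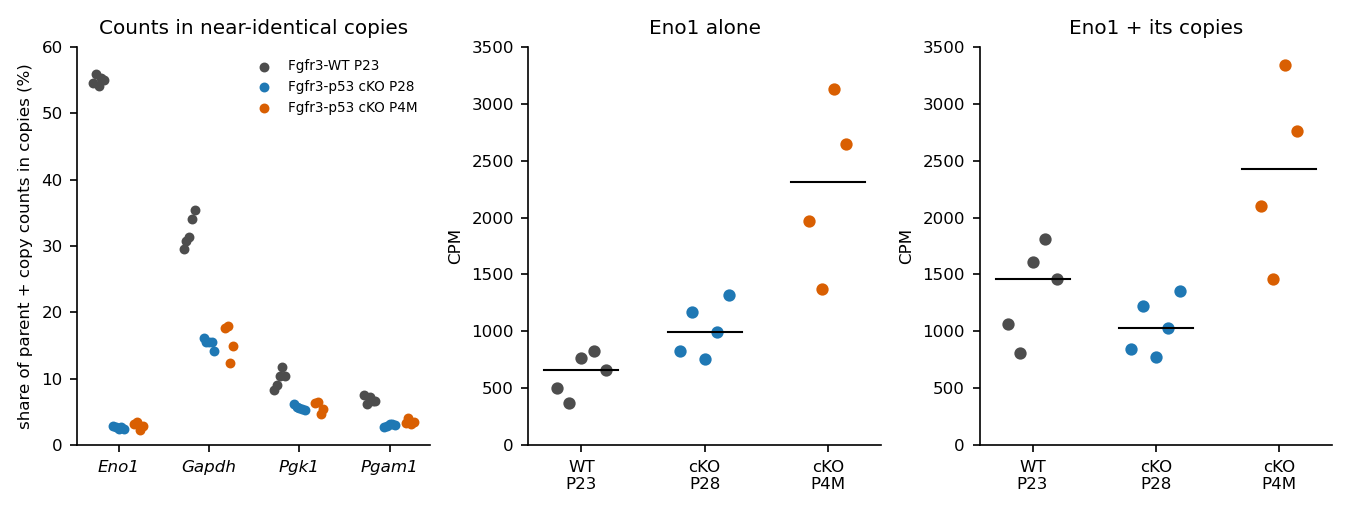
Left, percentage of the summed counts of a gene and its near-identical copies that fell on the copies, per clone, for Eno1, Gapdh, Pgk1 and Pgam1; the WT clones are near 55% for Eno1 and all cKO clones below 4%. Middle and right, CPM of Eno1 alone and of Eno1 with its copies, per clone with the group median: the P28 clones lie at 759 to 1320 CPM against 368 to 826 in WT alone, and at 777 to 1350 against 805 to 1810 CPM with copies.

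The other enolases have few reads in common with copies and changed sharply. Eno2, the neuron-type enolase and a HIF-responsive gene, was at 301, 103, 105, 79.0 and 112 CPM in WT clones, at 21.9, 28.2, 41.0, 5.50 and 2.72 CPM in P28 clones and at 9.11, 5.83, 29.0 and 17.9 CPM in P4M clones. All 9 cKO clones lay below the lowest WT clone (-3, SE 0.574, adjusted p = 0.000913). Eno3, the muscle-type enolase, went the other way, from 24.6, 5.09, 8.01, 5.52 and 5.26 CPM in WT to 78.4, 124, 135, 62.9 and 82.1 CPM in P28 and 137, 129, 30 and 115 CPM in P4M clones. All cKO clones lay above all WT clones (3.36, SE 0.511, adjusted p = 0.000193). The 5 skeletal muscle markers (Ckm, Acta1, Myog, Myod1 and Des) summed to 0 to 4.49 TPM in WT clones. They summed to 1.78 to 19.3 TPM in P28 and to 0.54 to 1.42 TPM in P4M clones. In the same unit Eno3 had means of 14.2, 134 and 124 TPM in WT, P28 and P4M clones. Any link between these markers and Eno3 was not tested.

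Gapdh, Pgk1, Pgam1 and Pkm each had their lowest group mean in P28 clones. Gapdh, the step that reduces NAD+, had group means of 1840 ± 479 CPM in WT (SD, n = 5), 1430 ± 274 in P28 (n = 5) and 2900 ± 1080 in P4M (n = 4). Alone it was not called in P28 against WT (-0.36, adjusted p = 0.27), but with copies summed it was (-0.70, SE 0.254, adjusted p = 0.0412). It was higher in P4M than in P28 (1.02, adjusted p = 0.0348, and 0.0375 with copies). Pgk1, the first ATP-generating kinase of the pathway, was at 361, 851, 1250, 1880 and 1600 CPM in WT, at 339, 428, 340, 325 and 497 CPM in P28 and at 869, 544, 2270 and 1450 CPM in P4M clones. Its difference was -1.62 in P28 against WT (adjusted p = 0.00938, and -1.71 with copies) and 1.73 in P4M against P28 (adjusted p = 0.0345). Pgam1, phosphoglycerate mutase, gave -1.16 (adjusted p = 0.00441) and 1.29 (adjusted p = 0.0182) in the same contrasts, with no overlap of clones in either. Pkm, pyruvate kinase, had the same signs (-0.54, adjusted p = 0.0937, and 0.85, adjusted p = 0.0592) but did not pass.

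Lactate dehydrogenase A, which reduces pyruvate to lactate, was at 800, 488, 772, 1160 and 1200 CPM in WT, at 281, 448, 334, 287 and 466 CPM in P28 and at 631, 529, 1190 and 875 CPM in P4M clones. P28 clones lay below all others (-1.28, SE 0.282, adjusted p = 0.0032 against WT. P4M against P28: 1.15, SE 0.294, adjusted p = 0.0332). Ldhb, whose subunit favours the conversion of lactate to pyruvate, varied widely between clones, from 1.01 to 29.5 CPM in WT, 11.7 to 176 CPM in P28 and 7.61 to 17.8 CPM in P4M clones. It passed in none of the 4 contrasts, and 2 P28 clones (55.2 and 176 CPM) held the highest values.

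The PFKFB enzymes make and degrade fructose 2,6-bisphosphate, an activator of phosphofructokinase. Pfkfb2 had the narrowest spread of them and stepped down, from 38.9, 38.9, 32.0, 29.3 and 36.1 CPM in WT through 23.7, 19.1, 21.7, 23.7 and 20.9 CPM in P28 to 13.8, 14.6, 19.1 and 12.2 CPM in P4M clones. All cKO clones lay below all WT clones (-0.96, SE 0.122, adjusted p = 5.5e-05). Pfkfb4 was at 4.98 to 9.90 CPM in WT, 7.97 to 16.6 in P28 and 13.0 to 29.2 CPM in P4M clones, and rose in P4M against WT (1.59, SE 0.299, adjusted p = 0.000993) but was not called in P28 (0.73, adjusted p = 0.0541). Pfkfb3, the isoform with the strongest kinase activity, ranged 54-fold among WT clones, from 3.49 to 188 CPM, and from 15.5 to 33.7 CPM over all cKO clones. It was called lower in the cKO clones together (-1.77, adjusted p = 0.0215), which was lost in 2 of the 14 fits without 1 clone (adjusted p of up to 0.0921 without WT replicate 5). Pfkfb1 was at 0.554 to 2.82 CPM in all clones and was not called.

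The PDKs, which inactivate pyruvate dehydrogenase, changed in different directions. Pdk4 (ENSMUSG00000019577, chr6:5483351-5496309, minus strand, mm10), a kinase induced by fasting and fatty acids, was at 5.73, 9.22, 1.54, 7.94 and 10.4 CPM in WT, at 54.4, 46.0, 52.8, 18.5 and 23.6 CPM in P28 and at 342, 264, 168 and 353 CPM in P4M clones. The 3 groups did not overlap. The difference was 2.48 (SE 0.457, adjusted p = 0.00116) in P28 and 5.33 (SE 0.526, adjusted p = 1.85e-05) in P4M against WT, and 2.85 (SE 0.473, adjusted p = 0.00722) in P4M against P28. Pdk1 (ENSMUSG00000006494, chr2:71873224-71903858, plus strand), the HIF-responsive kinase, was at 64.6, 74.8, 54.9, 63.9 and 109 CPM in WT, at 34.6, 30.8, 24, 21.2 and 36.1 CPM in P28 and at 89.8, 76.5, 222 and 163 CPM in P4M clones. It was lowest in P28 (-1.32, adjusted p = 0.00336 against WT) and rose to P4M (2.23, SE 0.31, adjusted p = 0.00365), and above WT in P4M (0.91, adjusted p = 0.0258), a call lost in 4 of 14 fits without 1 clone, with an adjusted p of up to 0.112 without P4M replicate 3. Pdk2 was lower in P4M than in WT, at 5.71 to 10.8 against 13.0 to 31.3 CPM (-1.56, adjusted p = 0.00111), and Pdk3 was at 28.9 to 39.3 CPM in every cKO clone and at 4.24 to 55.9 CPM in WT clones, without a call.

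The genes of oxygen sensing themselves changed less evenly. Hif1a, the alpha subunit of HIF-1, was at 616, 273, 373, 317 and 177 CPM in WT, at 200 to 220 CPM in P28 and at 190 to 277 CPM in P4M clones. Its lower level in P28 (-0.74, adjusted p = 0.033) held in 8 of the 14 fits without 1 clone, with an adjusted p of up to 0.0601 without WT replicate 1. Epas1, the alpha subunit of HIF-2, was at 6.61, 20.6, 20.2, 53.5 and 3.80 CPM in WT, at 0.948 to 9.27 CPM in P28 and at 1.80, 1.75, 9.16 and 2.09 CPM in P4M clones (-2.50, adjusted p = 0.0274 in P4M against WT, and up to 0.078 without WT replicate 4). Transcript levels of these subunits do not show protein levels, which oxygen controls after translation.

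The prolyl hydroxylases that mark HIF alpha subunits for degradation are themselves HIF-responsive. Egln1 (PHD2) was at 195, 102, 101, 148 and 103 CPM in WT, at 54.6, 57.7, 60.6, 53.3 and 62.5 CPM in P28 and at 95.9, 85.3, 290 and 133 CPM in P4M clones. P28 was below both other groups without overlap (-1.17, adjusted p = 0.00908 against WT. P4M against P28: 1.39, adjusted p = 0.0235). Egln3 (PHD3) was at 2.64, 0.880, 0.890, 11.5 and 1.66 CPM in WT, at 1.74, 2.70, 1.39, 2.07 and 4.05 CPM in P28 and at 7.77, 14.8, 84.7 and 18.0 CPM in P4M clones, and was called in P4M against WT (3.15, SE 0.847, adjusted p = 0.00878) and against P28 (3.71, SE 0.866, adjusted p = 0.0246). Without P4M replicate 3 neither was called (adjusted p = 0.0534 and 0.0752).

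Of the 6 other HIF-responsive genes, Ddit4 had the lowest log2 fold change of the 40 genes in both cKO groups together and in P28 against WT. In P4M against WT Eno2 was lower still (-3.18). Ddit4 (REDD1, ENSMUSG00000020108, chr10:59949669-59951834, minus strand), an inhibitor of mTORC1 that is induced by hypoxia and by p53, was at 386, 169, 290, 176 and 386 CPM in WT, at 22.7, 34.3, 21.2, 19.1 and 17.4 CPM in P28 and at 14.4, 14.8, 66.5 and 42.7 CPM in P4M clones. Every cKO clone was below every WT clone (-3.32, SE 0.364, adjusted p = 2.07e-05), and P4M and P28 overlapped (0.59, adjusted p = 0.418). Bnip3 (ENSMUSG00000078566, chr7:138890836-138909519, minus strand), a mitophagy receptor, was at 162, 106, 119, 180 and 256 CPM in WT, at 29.4, 27.2, 24.5, 20.1 and 24.9 CPM in P28 and at 52.4, 38.8, 200 and 84.8 CPM in P4M clones, so that P28 lay below both other groups (-2.71, SE 0.403, adjusted p = 0.000309 against WT. P4M against P28: 1.90, SE 0.406, adjusted p = 0.0171). Ankrd37, a HIF-1 target of little known function, was the same on a small scale, with 1.99 to 3.62 CPM in WT, 0.322 to 0.693 in P28 and 1.37 to 4.33 CPM in P4M clones (-2.16, adjusted p = 0.000857, and 1.91, adjusted p = 0.015).

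The remaining 3 genes did not share this course. Ndrg1, a stress-responsive gene, was at 65.5, 211, 483, 73.6 and 108 CPM in WT, at 121 to 252 CPM in P28 and at 349, 468, 943 and 384 CPM in P4M clones. All P4M clones lay above all P28 clones, but the adjusted p was 0.0903 (1.59, SE 0.547), and the call against WT (1.51, adjusted p = 0.0369) held in 8 of 14 fits without 1 clone, with an adjusted p of up to 0.132 without P4M replicate 3. Car9, the carbonic anhydrase often used as a marker of hypoxia, had 4, 0, 0, 0 and 9 counts in WT clones, 0.640 to 2.56 CPM in P28 and 0.091 to 1.84 CPM in P4M clones. It was called in P28 against WT (adjusted p = 0.0105) from these low levels and was among the 4 genes that were higher there. Car12 did not exceed 2.65 CPM in any clone and was not called.

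**Figure D4:**
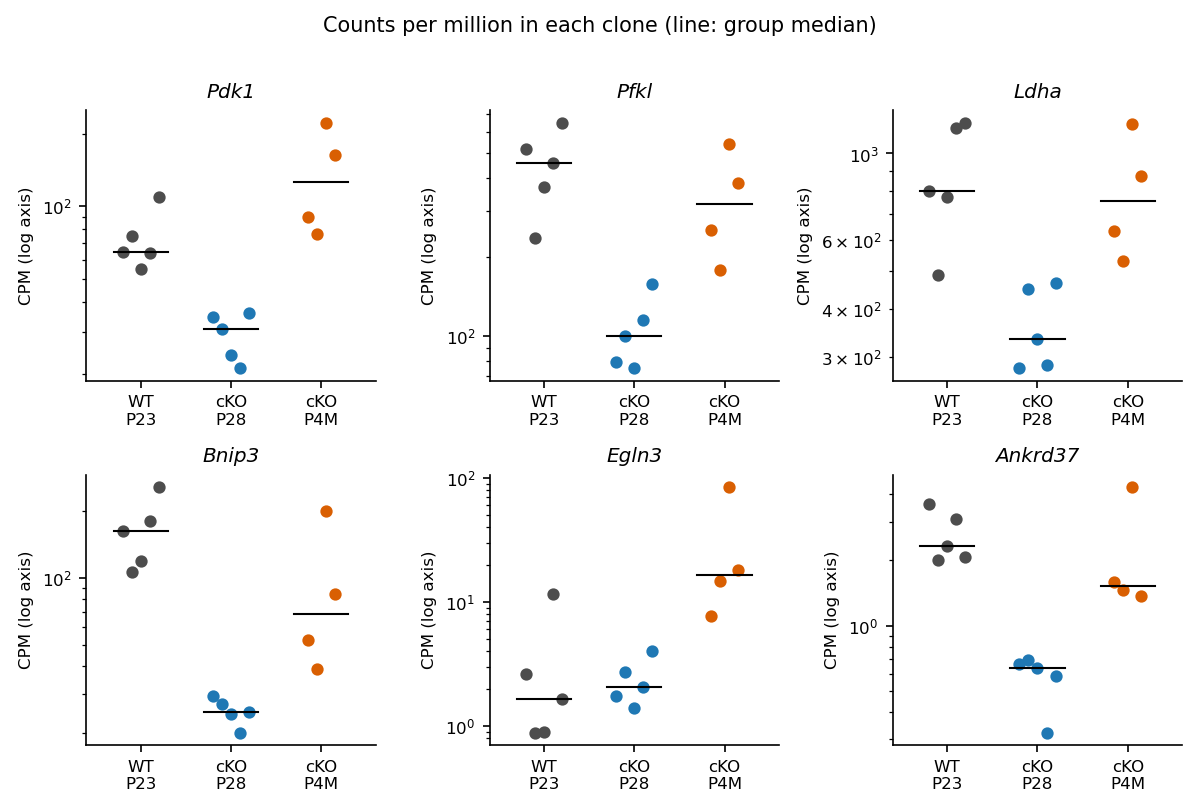
CPM (log axis) of Pdk1, Pfkl, Ldha, Bnip3, Egln3 and Ankrd37 in each clone, with the group median as a line. For all 6 genes every P4M clone lies above every P28 clone, and the P28 clones lie below every WT clone for all but Egln3, whose P28 clones (1.39 to 4.05 CPM) lie within the WT range.

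The core letters to which HIF binds, ACGTG, were searched in RefSeq promoter windows (GRCm38.p6, 250 bases before to 50 after a start, both strands) to show where they stand in these genes. Windows matched 37 of the 40 genes, with 56 windows in all. ACGTG stood in at least 1 window of 24 of the 37 genes (64.9%), beside 28.7% of 11413 tested genes that matched by symbol and 21.8% of all 27025 genes. The genes were not matched for base composition or number of windows. Of the 14 genes that were higher in P4M than in P28, 9 held ACGTG, and of the other 23 matched genes 15 did. The related letters GCGTG stood in 24 of the 37 genes, beside 54.5% of the tested genes. They stood in 11 of the 14 genes that were higher in P4M and in 13 of the other 23. Neither split was tested. Stretches upstream of the start are shown for 4 genes that were higher in P4M than in P28 and for Ddit4, which was low in both cKO groups. They are written 5′ to 3′ on the strand of the gene, with ACGTG and its complement CACGT in capitals. Where CACGTG is printed, both strands match.
Ldha, plus strand, chr7:46845629-46845803: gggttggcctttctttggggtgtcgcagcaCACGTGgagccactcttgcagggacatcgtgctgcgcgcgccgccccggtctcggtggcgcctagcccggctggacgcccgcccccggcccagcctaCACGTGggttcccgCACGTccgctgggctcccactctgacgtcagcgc
Pgk1, plus strand, chrX:106186920-106187003: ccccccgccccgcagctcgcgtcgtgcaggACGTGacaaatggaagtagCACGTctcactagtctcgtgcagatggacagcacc
Bnip3, minus strand, chr7:138909579-138909644: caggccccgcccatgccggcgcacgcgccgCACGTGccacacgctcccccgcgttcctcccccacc
Egln3, minus strand, chr12:54204069-54204124: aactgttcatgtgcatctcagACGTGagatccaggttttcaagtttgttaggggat
Ddit4, minus strand, chr10:59951923-59951987: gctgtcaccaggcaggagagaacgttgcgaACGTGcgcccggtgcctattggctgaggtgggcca
The letters thus occur upstream of genes that changed in different ways, and a match in such a window does not show that HIF was bound.

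Within enzyme families the balance of paralogues was described as the share of each gene in the summed TPM of its family, which corrects for transcript length. Eno2 made up 19.1% ± 11.3 (SD, n = 5) of enolase transcripts in WT, 2.07% ± 1.66 (n = 5) in P28 and 0.609% ± 0.287 (n = 4) in P4M clones, while Eno3 made up 2.22% ± 1.59, 12.5% ± 4.7 and 7.26% ± 4.63. With the copies of Eno1 added to it, an alternative chosen after these data were seen, the WT shares were 8.57% for Eno2 and 1.01% for Eno3, with the same order of groups. Pdk4 held 4.2% ± 1.82 of the PDKs in WT, 25.2% ± 7.6 in P28 and 59.6% ± 12.9 in P4M clones without overlap, and the family sum was 67.5 ± 21.9, 74.7 ± 12.7 and 206 ± 36.5 TPM. Pfkl made up 63.1% ± 10.3 of phosphofructokinase in WT and 63.7% ± 5.65 in P4M but 38.7% ± 7.34 in P28 clones, where Pfkm held 40.7% ± 8.04. Hk2 made up like shares of the hexokinases in all groups, with 22.1% ± 7.2, 18.8% ± 4.28 and 22.2% ± 0.727. Slc16a3 held 25.6% ± 27.4, 38.4% ± 20.2 and 63.8% ± 34 of the monocarboxylate transporters, a spread between clones that covers the differences.

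**Figure D5:**
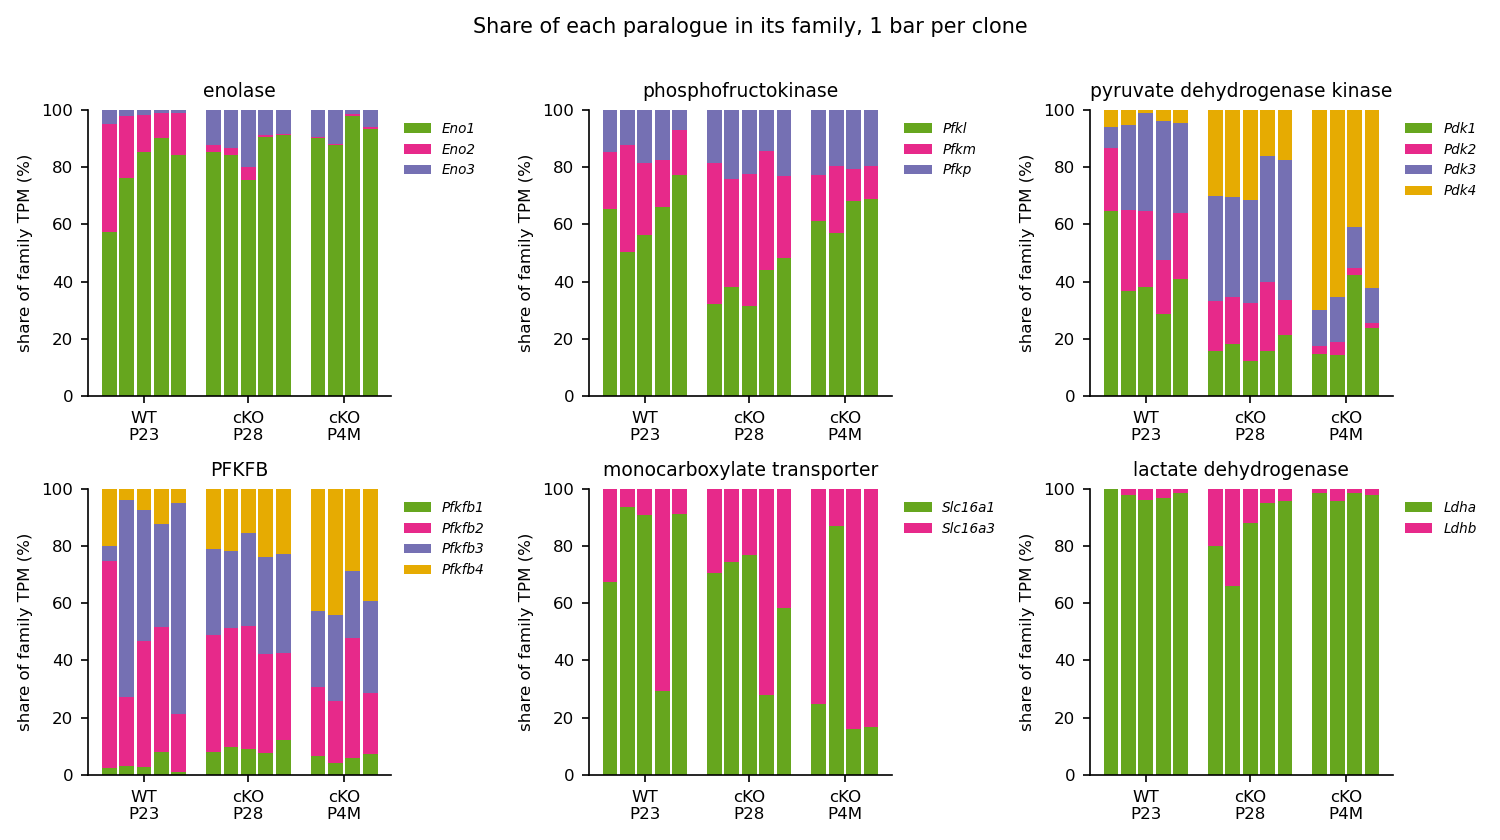
Share (%) of each paralogue in the summed TPM of its family, as 1 stacked bar per clone, for 6 families and the 3 groups. Pdk4 takes 1.24% to 5.92% of the PDK bars in WT, 16.2% to 31.5% in P28 and 40.8% to 70% in P4M clones, and Ldhb takes up to 34% in P28 clones.

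Between genes, compared in TPM, Gapdh had the highest mean level of the set in WT (2230 ± 635 TPM), P28 (2100 ± 394 TPM) and P4M clones (3730 ± 1420 TPM). Pkm was next in both cKO groups, at 1610 ± 447 TPM in P28 and 2530 ± 943 TPM in P4M, and in WT Pkm (1900 ± 398 TPM) and Aldoa (1900 ± 479 TPM) did not differ beyond their spread. Aldoa was at 700 ± 168 TPM in P28, below Eno1 at 941 ± 222 TPM, and at 1130 ± 444 TPM in P4M, below Eno1 at 1850 ± 639 TPM. Eno1 was at 487 ± 133 TPM in WT clones, where its copies took most of the summed counts. At the other end, Slc2a3 (0.032 TPM), Car9 (0.09 TPM), Car12 (0.232 TPM) and Pfkfb1 (1.39 TPM) had the lowest WT means.

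Some chromosomes were shifted as a whole in these clones, and members lie on them. On chromosome 7, which carries Gpi1, Aldoa, Ldha and Bnip3, the median gene was 0.63 to 0.69 log2 units below the WT mean in P28 replicates 4 and 5 and in all P4M clones, and 0.10 to 0.24 below in P28 replicates 1 to 3. Over all 1256 tested genes of chromosome 7, without centring, the median difference was -0.39 in P28 and -0.75 in P4M against WT. Relative to it, Gpi1 stood at -1.50 and -0.52, Aldoa at -1.32 and -0.10, and Bnip3 at -2.31 and -0.06. Between P4M and P28 the median of chromosome 7 was -0.35, opposite to Ldha (1.15) and Bnip3 (1.90). The medians were -0.39 and -0.43 against WT for chromosome 10, with Hk1, Pfkl and Ddit4, and 0.41 and 0.47 for chromosome 4, with Slc2a1, Eno1 and Car9. Single WT clones spread about as widely, from -0.39 to 0.33 on chromosome 10 and from -0.41 to 0.38 on chromosome 4. On chromosome 7 they ran from -0.12 to 0.20. These WT values were centred, each clone against the mean of the other WT clones. Ddit4 stood 3.23 and 2.59 log2 units below the median of its chromosome in P28 and P4M. What part of each difference goes with its chromosome was not tested.

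Genes around the pathway were counted in the same way and read beside the share of all genes. In a list of 30 other HIF pathway and hypoxia genes, of which 29 were tested, 12 (41.4%) were called in P28 against WT, near the 38.9% of all genes. Of these, 11 were lower and 1 was higher, where all genes were called lower (19.7%) about as often as higher (19.2%), and the median of the list was -0.63. In P4M against WT, 3 were higher and 6 lower (31%, below the 45.9% of all genes). In P4M against P28, 5 were higher (P4ha1, Vegfa, Bhlhe40, Fam162a and Mif, by 0.97 to 1.78) and Arnt2 was lower (-3.60), which is 20.7% called beside 7.22% of all genes, with a median of 0.55. These genes are named after their values were seen. Arnt, the constant partner of the HIF alpha subunits, was higher in all cKO than in all WT clones (0.61, SE 0.147, adjusted p = 0.00387).

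The 4 other lists were short. Of 14 tested genes among 22 further glycolysis and gluconeogenesis genes, 3 were lower and none higher in P28 against WT (21.4% called, beside 38.9% of all genes), and 2 were higher and 3 lower in P4M against WT (35.7%, beside 45.9%). G6pc3, a ubiquitous glucose 6-phosphatase, was lower in all cKO clones than in all WT clones (-0.91, SE 0.154, adjusted p = 0.000369). Of 7 pentose phosphate genes, 2 rose and 2 fell in P28 against WT (57.1% called, beside 38.9%), and 2 rose and 1 fell in P4M against WT (42.9%, beside 45.9%). Transketolase (Tkt) was higher (0.66, SE 0.135, adjusted p = 0.00146) and transaldolase (Taldo1), on the same branch, was lower (-1.48, SE 0.189, adjusted p = 5.62e-05) in all cKO clones, without overlap. Of 10 genes for the entry of pyruvate into mitochondria, 3 were higher and none lower in P28 against WT (30% called, beside 38.9%), 3 were higher and 1 lower in P4M against WT (40%, beside 45.9%), and 2 were higher and 2 lower with both cKO groups together (40%, beside 48.8%). Pdhb, a subunit of pyruvate dehydrogenase, was higher in all cKO clones than in all WT clones (0.52, SE 0.112, adjusted p = 0.0019). Of 7 metabolic genes linked to p53, 1 rose and 1 fell in P28 against WT (28.6% called, beside 38.9%), namely Rrad (4.37) and Pank1 (-1.19), named after their values were seen. In P4M against WT, 2 of the 7 were higher and 1 lower (42.9%, beside 45.9%).

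The P28 against WT values were the steadiest of the 3 pairwise comparisons and the P4M against P28 values the least. Of the 24 genes called in P28 against WT, 19 passed in every one of 14 fits without 1 clone and in the other settings tried. Of the 16 genes called in P4M against P28, only Pfkl, Pdk1, Pdk4 and Bnip3 did, and Ankrd37 passed in all 14 fits without 1 clone. The number called there was 6 without P28 replicate 1, 5 without P28 replicate 3, 8 without P28 replicate 4, 9 without P4M replicate 1, 9 without P4M replicate 3 and 7 without P4M replicate 4, beside 16 with all clones, and 26 with DESeq2. With limma on log2(TPM + 1), the split was 11 higher and 13 lower in both cKO groups together, 6 and 16 in P28 against WT and 8 and 4 in P4M against P28. In each of the edgeR fits just named at least 5 genes were higher in P4M and at most 2 were lower, and with DESeq2 22 were higher and 4 lower.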

How the data were processed

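Bulk RNA-seq of 14 cultured clones was analysed from the tables that the authors deposited. By the methods, RNA was amplified with SMART-Seq v4, libraries were sequenced as single-end reads, and reads were aligned to mm10 with TopHat and Bowtie2 and counted with HTSeq. Tool versions are not given in the sources used here. The deposited count table holds raw counts per gene. The expected counts, as deposited by the authors, equal the raw counts exactly, before any rounding, in all 14 clones for the 30503 genes of the count table and were used only as an alternative, rounded to whole numbers. The TPM values, deposited by the authors, are corrected for transcript length and depth. Deposited FPKM, depth-normalized and rlog tables were not used.

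Counts were tested in R 4.3.3 with edgeR 4.0.16 (filterByExpr, TMM, robust quasi-likelihood F-test, 14 clones in 1 model, Benjamini-Hochberg over 17358 genes, FDR 0.05). CPM are TMM-scaled, and SE is the absolute log2 fold change divided by the square root of F. Of the symbol Aldoa, the larger of its 2 gene identifiers was used. Groups follow the labels, and replicate numbers are running numbers. Copies were gene models elsewhere in GENCODE M21 that share at least 2% of the 50-base windows of a gene, a limit set after the data were seen. By the methods, ambiguously mapped reads were not counted. Whether reads that fit several places were left out of the deposited counts or split among copies was not tested. Chromosome shifts per clone were centred on the autosomes and left out genes whose average log2 CPM was below 3. Chromosome medians of a contrast took in all tested genes and were not centred. The 40 genes and all lists were chosen with earlier results of these data known. Every one of the 40 was described, and of each further list the 2 genes with the largest change in all cKO against WT that were called, reached an average log2 CPM of 3 and did not overlap were named. The steps were tested on simulated data. Alternatives were DESeq2 1.42.0, other scalings and filters, limma 3.58.1 on log2(TPM + 1), a fold change limit, and fits without 1 clone. Total counts set the precision: 3 counts correspond to 0.0564 to 0.121 CPM, and these floors leave out all but counting error, because reads were not tagged by molecule.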

Additional observations from a re-analysis of the deposited data

Results flagged for a closer look

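Of 120 sets of values (40 genes in 3 groups), 7 held a clone whose gap to the nearest other clone passed Dixon's 95% limit, which is 5.83% of the sets, where chance flags about 5%. Slc16a3 was low in P4M replicate 2, at 3.55 CPM beside 81.2 to 150 CPM in the other P4M clones. Eno2 and Eno3 were both high in WT replicate 1, at 301 CPM beside 79.0 to 112 CPM and at 24.6 CPM beside 5.09 to 8.01 CPM. In P4M replicate 3, Eno3 was low (30 CPM beside 115 to 137 CPM), while Epas1 (9.16 CPM beside 1.75 to 2.09 CPM) and Ankrd37 (4.33 CPM beside 1.37 to 1.59 CPM) were high. Ankrd37 was low in P28 replicate 4, at 0.322 CPM beside 0.589 to 0.693 CPM.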

How the results depend on the processing

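The counts of called genes stayed within 1.5 times the reported one in every setting for both cKO groups together, for P28 and for P4M against WT and for the 3-group test. For P4M against P28 the count was 26 with DESeq2 and ranged from 5 (without P28 replicate 3) to 21 (without WT replicate 1) over the 14 fits without 1 clone. Shares of all genes called were not counted in these settings. No called value changed its sign under any alternative. In 21 gene and contrast pairs that were not called, the sign changed in at least 1 fit, with an adjusted p never below 0.227. With copies summed, Eno1 in P28 against WT was -0.42 and Gapdh in all cKO against WT was -0.20. With no scaling factors Ndrg1 in P28 against WT was 0.03. With limma on log2(TPM + 1), Pkm was 0.04 in all cKO, Egln3 0.11 and Ndrg1 0.56 in P28, and Slc2a1 0.13 and Ldhb 0.33 in P4M against WT, and Eno3 was -0.26, Pdk3 -0.07, Hif1a -0.14 and Car12 -0.01 in P4M against P28.

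Over the fits without 1 clone, Pdk3 ranged from -0.13 to 0.48 in all cKO, from -0.19 to 0.43 in P28 and from -0.06 to 0.54 in P4M against WT. In P28 against WT, Egln3 ranged from -0.85 to 0.65 and Ndrg1 from -0.33 to 0.64. In P4M against WT the ranges were -0.53 to 0.33 for Slc2a1, -0.13 to 0.42 for Aldoc, -0.31 to 0.37 for Pgk1, -0.05 to 0.30 for Pgam1, -0.37 to 0.03 for Ldha, -0.58 to 0.05 for Ldhb, -0.18 to 0.26 for Pfkfb1 and -0.30 to 0.42 for Egln1. In P4M against P28 they were -0.86 to 0.11 for Eno2, -0.05 to 0.40 for Eno3, -0.02 to 0.20 for Hif1a and -0.34 to 0.59 for Car12. Shares taken from CPM in place of TPM moved by more than 1 SD for Hk2 (30%, 25.7% and 30% in WT, P28 and P4M), Aldoc in P4M (1.15%), Pfkfb3 (41.8% and 37.3%) and Pfkfb1 (3.07% and 2.06%) in P28 and P4M, Pdk1 in WT and P28 (55.9% and 25.2%), Pdk2 in WT (17.3%) and Pdk3 in P28 and P4M (29.3% and 8.01%), and so for the complements Hk1 and Aldoa, since CPM keeps transcript length. The causes of the other differences were not tested. No paired analysis was possible because the replicate numbers only count the clones within a group.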

Other observations

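WT replicate 1 differed from the other WT clones in genes of the X chromosome. Its median X-linked gene was 1.46 log2 units below the mean of the other WT clones. In the other 4 WT clones it was 0.04 to 0.57 above the mean of the remaining WT clones. That mean takes in replicate 1, which raises their values. The X-linked genes of the set were also at or near the bottom of the WT group in it, with 361 CPM for Pgk1 (851 to 1880 CPM in the other WT clones), 4.24 CPM for Pdk3 (24.6 to 55.9 CPM) and 0.554 CPM for Pfkfb1 (0.85 to 2.03 CPM). The median X-linked gene was 0.16 to 0.54 below the WT mean in the 9 cKO clones. Without WT replicate 1, Pgk1 in P28 against WT was among the genes called, as with it. The same clone was the highest of the WT clones for Slc2a1, Hk1, Hif1a and Egln1. The cause was not tested.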
